A study of Mus musculus with 7 samples.

Results

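The transcripts described here are 10 genes of the ciliated ependymal cells that line the brain ventricles and of the choroid plexus, out of 24346 genes in the expression table. They were taken by symbol. The 7 ependymal cilia genes are *Foxj1*, *Ccno*, *Rsph1*, *Dynlrb2*, *Ccdc153*, *Tmem212* and *Capsl*, and the 3 choroid plexus genes are *Ttr*, *Kl* and *Folr1*. *Capsl* was chosen by its values in these same libraries, as a gene picked from this contrast for qPCR, and the other members were chosen with results of these data in view. The differences of the 10 genes between genotypes are therefore given as a description, with no test.

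The study examined the creatine transporter gene *Slc6a8* (CrT), whose loss in humans causes an X-linked brain creatine deficiency. Bulk mRNA sequencing was performed on whole cerebral cortex from 4 knockout males (CrT-/y, shown as KO, numbered 0 to 3 in the labels) and 3 wild-type male littermates (CrT+/y, shown as WT, numbered 1 to 3). All animals were on a C57BL/6J background, were untreated and were killed at postnatal day 100. The knockout allele lacks exons 5 to 7 of *Slc6a8* in every cell of the body, so neither cell type nor time of loss is set apart in this model. Each library is 1 animal, and values are FPKM, fragments scaled by transcript length and by library size, so levels of genes of different length can be set side by side.

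Ependymal cells carry tufts of motile cilia that move cerebrospinal fluid. Their fate depends on a cascade in which geminin-family regulators and *Ccno* drive the amplification of basal bodies, while FOXJ1 and RFX factors switch on the genes of the axoneme, the microtubule core that carries dynein motors. The choroid plexus is a separate epithelium inside the ventricles that secretes the fluid, and it is known for very high *Ttr* expression. Neither tissue is part of the cortical grey matter, but a dissected cortex can hold some of either. In bulk tissue, fewer cells of a type and less RNA per cell cannot be told apart.

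A promoter entry from RefSeq (build GRCm38.p6, 250 bases before to 50 after the start of transcription) was matched for 6 members, *Ccno*, *Dynlrb2*, *Ccdc153*, *Tmem212*, *Capsl* and *Kl*. The half-site of RFX factors, GTTGCC, occurred on either strand of 3 of the 6, against 12.5% of all 32851 promoters. The core of the forkhead motif, GTAAACA, was in 0 of the 6 and in 3.65% of all promoters. As no member held the forkhead core, no overlap of the motifs arose. The RFX half-site lay 219 bases before the start in *Ccno*, 51 in *Dynlrb2* and 152 in *Ccdc153*. A match of letters is a description of the window and not evidence of binding. The 250 bases before the start are shown for these 3 genes, because they share the half-site (in capitals), and for *Capsl*, the gene followed by qPCR, in whose window neither motif occurred. All 4 are read 5′ to 3′ on the plus strand, at chr13:112987552-112987801, chr8:116504765-116505014, chr9:44240427-44240676 and chr15:9435778-9436027 in that order.
Ccno: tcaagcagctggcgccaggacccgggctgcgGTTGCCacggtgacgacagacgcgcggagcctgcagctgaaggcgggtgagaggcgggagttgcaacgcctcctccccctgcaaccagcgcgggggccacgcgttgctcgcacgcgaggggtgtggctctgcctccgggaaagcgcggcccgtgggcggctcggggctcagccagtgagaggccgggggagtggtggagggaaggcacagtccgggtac
Dynlrb2: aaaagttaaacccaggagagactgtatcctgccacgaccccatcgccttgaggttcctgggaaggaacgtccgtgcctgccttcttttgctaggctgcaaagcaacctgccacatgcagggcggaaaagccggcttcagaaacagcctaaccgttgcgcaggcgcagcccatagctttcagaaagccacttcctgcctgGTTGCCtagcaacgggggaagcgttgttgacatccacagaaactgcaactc
Ccdc153: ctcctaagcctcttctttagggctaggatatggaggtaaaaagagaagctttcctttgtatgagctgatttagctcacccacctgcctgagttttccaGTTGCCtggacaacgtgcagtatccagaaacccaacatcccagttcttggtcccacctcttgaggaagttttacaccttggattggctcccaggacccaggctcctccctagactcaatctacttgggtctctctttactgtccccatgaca
Capsl: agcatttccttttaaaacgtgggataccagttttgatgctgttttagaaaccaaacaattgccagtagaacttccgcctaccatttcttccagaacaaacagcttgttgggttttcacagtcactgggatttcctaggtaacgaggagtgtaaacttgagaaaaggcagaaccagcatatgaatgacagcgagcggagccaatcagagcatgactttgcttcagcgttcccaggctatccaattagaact
The qPCR primers for *Capsl* show which part of the gene the follow-up read.
Capsl forward primer: ggaatggacggaggaacaagtc
Capsl reverse primer: gtcaatggatgcacttacacctg
The pair matched the longer annotated *Capsl* transcript (949 bp) at bases 593 to 719, an amplicon of 127 bp. The forward primer has no match in the shorter transcript of 739 bp, so the qPCR reads the longer form, whereas the FPKM value covers the gene as a whole.

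The libraries were similar in scale. Summed FPKM ranged from 382949 to 403414 and genes above 0 from 17207 to 17821. *Slc6a8* was 12.4, 14.9, 14.7 and 15.7 FPKM in the KO libraries and 32.3, 29.6 and 28.0 in the WT libraries, which matches every label to its genotype. What remains in KO was counted over the whole gene, including exons outside the deletion. WT replicate 2 stood apart in choroid plexus genes, and levels of striatal genes varied between libraries of both genotypes. These values are given beside the results they touch.

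*Foxj1*, on chromosome 11 (mm10, 116330704 to 116335399), encodes the forkhead factor at the head of the motile cilium program. It was at 1.87, 1.67, 1.57 and 2.60 FPKM in KO replicates 0 to 3 and at 1.60, 2.44 and 2.29 in WT replicates 1 to 3. The groups overlapped over nearly their whole range, with means of 1.93 ± 0.465 (SD, n = 4) in KO and 2.11 ± 0.443 (SD, n = 3) in WT. The log2 difference, KO minus WT, was -0.13 ± 0.20 (SE), smaller than its error. All log2 differences here are of FPKM + 0.1, which understates changes of genes with low values.

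*Ccno*, on chromosome 13 (112987802 to 112990777), encodes cyclin O, which is required to build the many centrioles of a multiciliated cell. Its KO values were 1.53, 1.61, 1.65 and 1.58 FPKM and its WT values 0.480, 0.590 and 1.15. Every KO animal was above every WT animal. The KO animals lay within a narrow band (1.59 ± 0.0511, SD, n = 4), while the WT animals spread more widely (0.739 ± 0.358, SD, n = 3). This gave a log2 difference of 1.09 ± 0.25 (SE). The values correspond to about 82 to 120 fragments in KO and 23 to 69 in WT if all came from the longest transcript. By the shortest transcript they are about 15 to 22 and 4 to 13, where counting error is large. The narrow KO band is therefore not read further.

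*Rsph1* on chromosome 17 (31255019 to 31277383) encodes a head protein of the radial spoke, the strut that links the outer microtubules to the central pair. It was at 3.18, 2.32, 2.59 and 3.41 FPKM in KO and at 2.87, 3.48 and 2.27 in WT. Its means were nearly equal, 2.88 ± 0.507 (SD, n = 4) and 2.88 ± 0.604 (SD, n = 3), and the log2 difference was 0.01 ± 0.17 (SE). *Rsph1* had the highest mean of the 7 cilia genes.

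*Dynlrb2* on chromosome 8 (116504974 to 116515915) encodes a light chain of cytoplasmic dynein that is prominent in ciliated cells. Its KO values were 0.930, 1.18, 1.48 and 2.29 FPKM, and its WT values 0.995, 1.92 and 0.270. The lowest and highest animals differed 8.48-fold, the widest span of the 7 cilia genes, and the groups overlapped. The value in WT replicate 3 corresponded to about 3 fragments, estimated from the step size of low FPKM values, so its counting error is large. Without that animal the log2 difference was 0.01, so the value below rests on it. With all 7 animals the log2 difference was 0.67 ± 0.51 (SE), from means of 1.47 ± 0.591 (SD, n = 4) and 1.06 ± 0.827 (SD, n = 3).

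*Ccdc153* on chromosome 9 (44240676 to 44247306) encodes a coiled-coil protein of the dynein regulatory complex and is a common marker of ependymal cells. It was at 1.87, 0.785, 1.12 and 2.96 FPKM in KO and at 0.773, 1.63 and 0.870 in WT. KO replicate 3 was 1.58 times the next highest animal, KO replicate 0 was also above all WT animals, and KO replicates 1 and 2 lay within the WT range. The log2 difference was 0.49 ± 0.41 (SE), from means of 1.69 ± 0.965 (SD, n = 4) and 1.09 ± 0.471 (SD, n = 3).

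*Tmem212* on chromosome 3 (27866066 to 27896368) encodes a membrane protein used as an ependymal marker. Its KO values were 0.967, 0.636, 1.45 and 1.59 FPKM and its WT values 0.597, 1.01 and 1.00. The groups overlapped, with KO replicates 2 and 3 above all WT animals and KO replicates 0 and 1 among them. KO exceeded WT by 0.34 ± 0.31 (SE) on the log2 scale.

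*Capsl* on chromosome 15 (9436028 to 9466038) encodes a calcyphosine-like protein with EF-hand calcium-binding motifs. It was at 1.63, 1.54, 1.90 and 2.23 FPKM in KO and at 1.29, 0.996 and 0.725 in WT. All KO animals were above all WT animals, and the nearest pair was KO replicate 1 and WT replicate 1. Means were 1.82 ± 0.309 (SD, n = 4) and 1.00 ± 0.281 (SD, n = 3), a log2 difference of 0.82 ± 0.21 (SE). These values correspond to few reads, about 30 to 53 fragments in KO and 17 to 23 in WT if all came from the longer transcript.

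**Figure D1:**
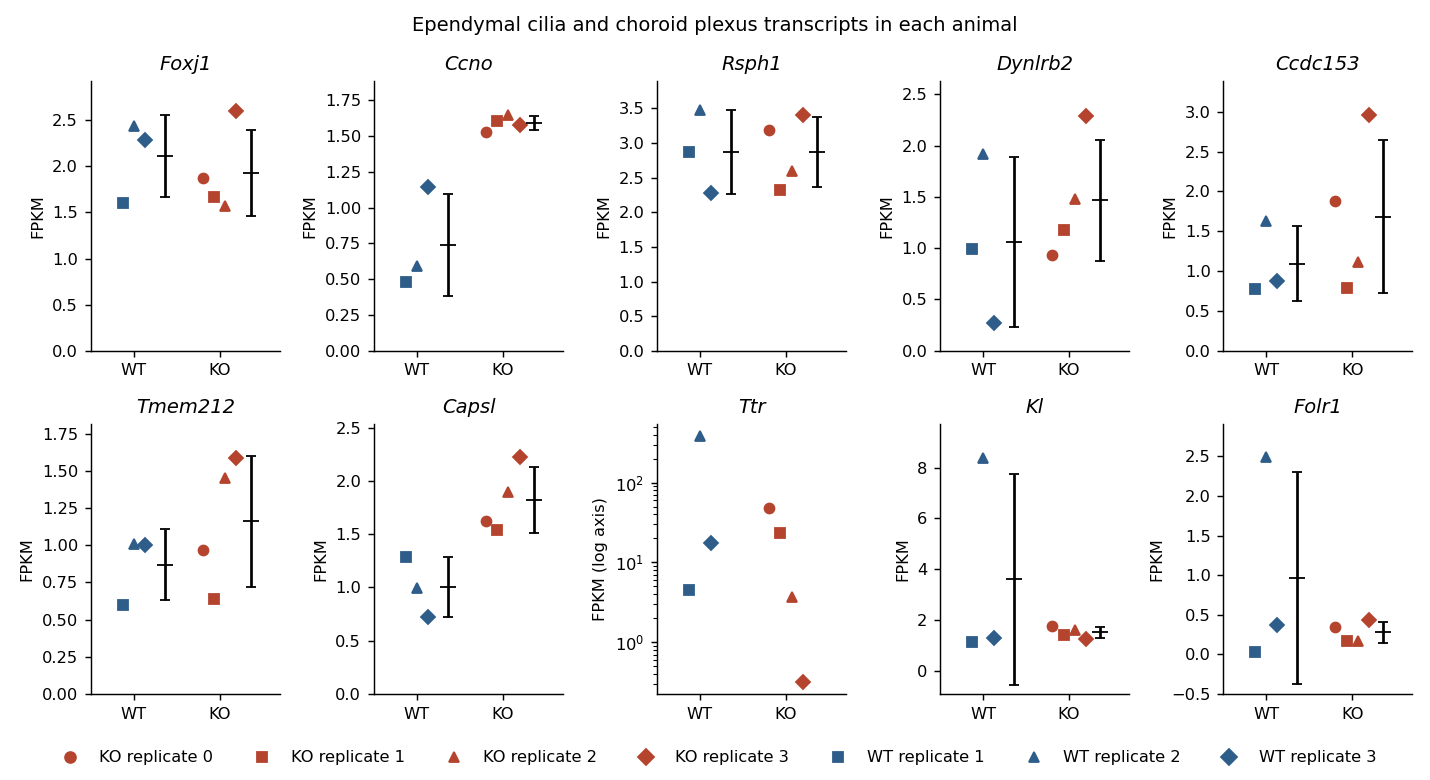
FPKM of each of the 10 transcripts in each animal (WT in blue, KO in red, symbols give the replicate number), with mean ± SD as bars except for *Ttr*, which is on a log axis. *Ccno* and *Capsl* show KO animals above all WT animals, while *Ttr*, *Kl* and *Folr1* show WT replicate 2 far above the other animals.

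Of the 10 members, 9 reached the mean of 1 FPKM needed to enter the genome-wide fit, and *Folr1* did not. Among all 12988 genes that entered, 10.1% were called at an adjusted p under 0.1 (limma, Benjamini-Hochberg), 2.9% as higher and 7.25% as lower in KO. With quantile normalisation, 48.8% of calls were higher in KO, against 28.6% without it. Of the 9 members 2, *Capsl* and *Ccno*, were among the genes called higher. Groups did not overlap for these 2 members and for 21.6% of all tested genes. The count of members called was 0 without KO replicate 1, 2 or 3 or WT replicate 2. It was 1 without KO replicate 0 or WT replicate 1, and 2 without WT replicate 3. As the members were chosen from this contrast, nothing is read from these counts.

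The animal with the highest ependymal cilia levels was KO replicate 3. It had the highest value for *Foxj1*, *Dynlrb2*, *Ccdc153*, *Tmem212* and *Capsl*, and the second highest for *Rsph1*. Without it, the log2 difference fell to 0.45 for *Dynlrb2*, 0.18 for *Ccdc153* and 0.17 for *Tmem212*, and was 0.73 for *Capsl* and 1.09 for *Ccno*. The 7 genes did not move as a block. With genotype means removed, the Pearson r between their log2 values over 7 animals had a median of 0.35 over 21 pairs, from -0.76 to 0.87. These are a description of 7 libraries with few fragments per gene.

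*Ttr* encodes transthyretin, the thyroid hormone carrier that the choroid plexus secretes into cerebrospinal fluid. It was at 47.9, 23.5, 3.65 and 0.320 FPKM in KO and at 4.55, 379 and 17.6 in WT. The highest animal was 1185-fold above the lowest, and WT replicate 2 was 7.91-fold above the next animal, KO replicate 0. By level, *Ttr* was gene number 101 in the WT replicate 2 library and number 14688 in KO replicate 3. The log2 difference was -2.28 ± 1.76 (SE) with all 7 animals and -0.48 without WT replicate 2. The direction in the remaining animals depended on the scale, since their mean FPKM was 18.9 in KO and 11.1 in WT. Without KO replicate 3, the lowest library, the log2 difference was -0.96.

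*Kl* on chromosome 5 (150952607 to 150993817) encodes alpha-Klotho, a coreceptor for fibroblast growth factor 23 that is abundant in choroid plexus and kidney. It was at 1.77, 1.41, 1.63 and 1.26 FPKM in KO and at 1.14, 8.38 and 1.30 in WT. WT replicate 2 was 4.74-fold above the second animal and the other 6 lay close together. The log2 difference was -0.61 ± 0.57 (SE), and it turned positive, 0.29, without WT replicate 2.

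*Folr1* on chromosome 7 (101858331 to 101870788) encodes the folate receptor alpha, which carries folate across the choroid plexus into the fluid. It was at 0.345, 0.163, 0.165 and 0.436 FPKM in KO and at 0.0320, 2.50 and 0.364 in WT. WT replicate 2 was again highest, 5.73-fold above the next animal, and the value in WT replicate 1 corresponds to 0 to 1 fragments. The log2 difference was -0.59 ± 0.87 (SE) in a fit with no filter on low values, and 0.54 without WT replicate 2.

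**Figure D2:**
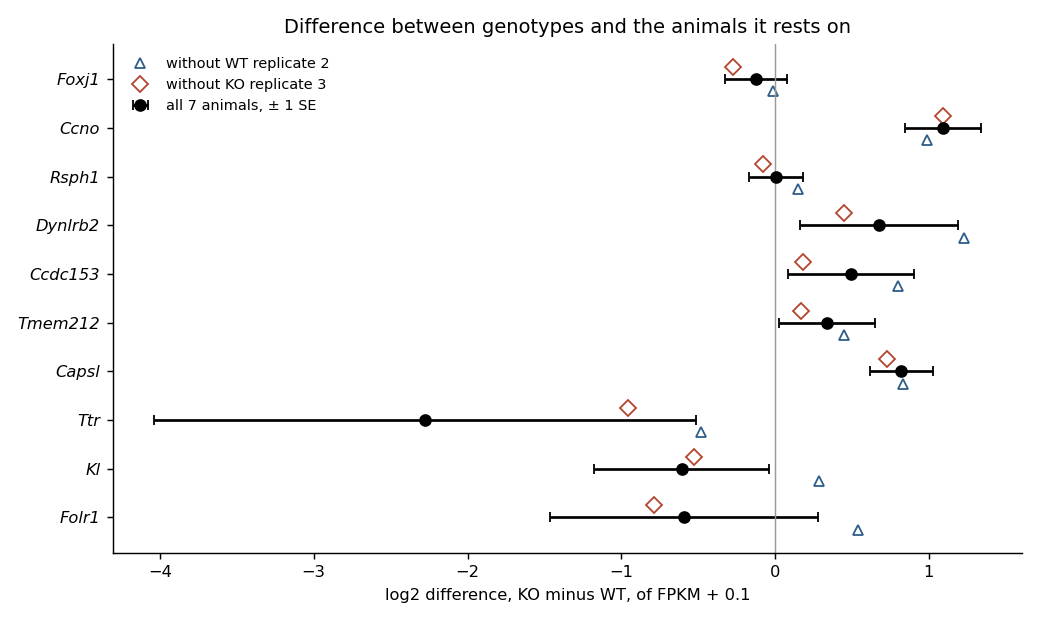
Log2 difference between KO and WT of each transcript with all 7 animals (points with 1 SE), without WT replicate 2 (triangles) and without KO replicate 3 (diamonds). *Kl* and *Folr1* change sign without WT replicate 2. *Ccno* and *Capsl* are at 0.99 and 0.83 without it, and 0 members were called in that fit. As the members were chosen with results of these data in view, nothing is read from the values that remain.

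Other genes of these tissues were read from lists of genes that are not members. Of 45 further choroid plexus genes, 44 were in the table and 43 were above 0 in some animal, while *Otx2os1* was at 0 in all 7. Of the 43, 37 had their highest value in WT replicate 2, 86.1%, against 17.5% of all genes above 0. Among the 21 with a mean under 1 FPKM the count was 19, against 15.6% of all genes at that level. *Kcnj13*, a potassium channel of the plexus epithelium, was at 7.66 FPKM in WT replicate 2 and between 0.579 and 1.42 in the other animals. *Kcne2*, a channel subunit, was at 2.37 and at most 0.217 elsewhere. The tight junction gene *Cldn2* was at 1.31 against at most 0.158, the bicarbonate transporter *Slc4a5* at 1.38 against at most 0.199, and the chloride channel gene *Clic6* at 4.85 against at most 1.26. The summed level of the list was 378 FPKM in WT replicate 2 and 190 to 202 in the other 6 animals. *Enpp2* alone made up 34.7% of this sum. Without it the sum was 218 FPKM in WT replicate 2 and 116 to 150 in the other 6. The genes in these sentences other than *Otx2os1* were picked after their values were seen.

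**Figure D3:**
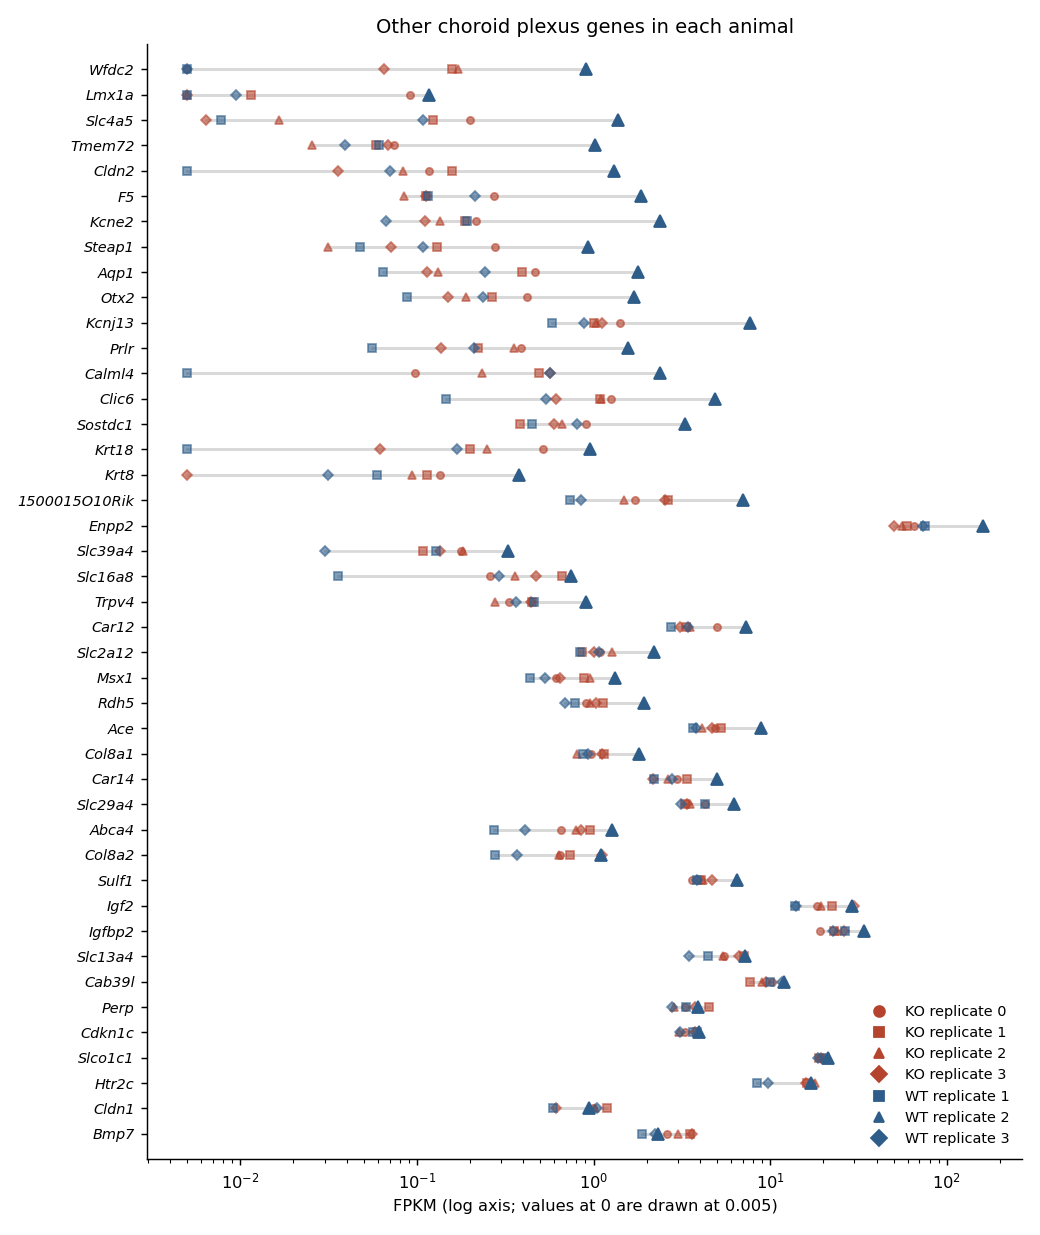
FPKM of the 43 other choroid plexus genes above 0 (rows, log axis) in each animal, ordered by how far WT replicate 2 lies above the median of the other 6. The large blue triangle, WT replicate 2, is the rightmost point in 37 of the 43 rows.

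The genotype comparison of this list changed with that animal. Of 22 genes tested, 1 was called higher in KO and 0 lower, and the median log2 difference was -0.11, beside -0.03 over all tested genes. The gene called was *Bmp7*, a bone morphogenetic protein that meningeal cells also make, at 2.61, 3.53, 3.02 and 3.61 FPKM in KO and 1.87, 2.32 and 2.23 in WT (log2 difference 0.55 ± 0.14, SE, adjusted p = 0.0609 by limma). The most abundant genes of the list were *Enpp2*, the autotaxin gene, *Igfbp2* and *Igf2*. *Enpp2* was at 64.8, 59.8, 56.0 and 50.1 FPKM in KO and at 75.3, 160 and 73.8 in WT, without overlap, and its log2 difference of -0.74 ± 0.24 (SE) missed the threshold (adjusted p = 0.107 by limma). *Igfbp2* and *Igf2* had log2 differences of -0.25 ± 0.14 and 0.31 ± 0.26 (SE) and were not called. Without WT replicate 2, 18 genes of the list had a mean of 1 FPKM or more. In that fit 244 of all 12970 genes tested were called higher in KO and 509 lower, 5.81% together. As 37 of the 43 genes above 0 were highest in WT replicate 2, leaving it out raises the differences of most of the list. Nothing is therefore read from the counts or the median that follow. Of the 18 genes, 5 were called higher and 1 lower in KO, and the median log2 difference was 0.19. The 5 were *Htr2c* (0.88 ± 0.08, SE), *1500015O10Rik* (1.27 ± 0.25), *Slc13a4* (0.63 ± 0.15), *Bmp7* (0.61 ± 0.16) and *Igf2* (0.66 ± 0.18), and *Enpp2* was the gene that fell (-0.38 ± 0.10). The list had 0 calls without KO replicate 1, 2 or 3 or WT replicate 1, and 4 without WT replicate 3. That comparison has 2 WT animals, and *Htr2c*, a serotonin receptor, is made by neurons of cortex and striatum too.

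Of 101 genes of the axoneme and ciliary motility, 93 were in the table and all 93 were above 0, but 64 of them had a mean under 1 FPKM. Of the 29 tested, 3 were higher and 1 lower in KO, beside 2.9% of all genes higher and 7.25% lower. In both directions together the share was near the 10.1% of all genes called. The median log2 difference was -0.04, beside -0.03 over all genes. The radial spoke genes *Rsph9* (log2 difference 0.47 ± 0.13, SE, adjusted p = 0.0795 by limma) and *Rsph3a* (0.31 ± 0.09, SE, adjusted p = 0.0927 by limma) rose. *Meig1*, known for its part in sperm formation, also rose (0.81 ± 0.22, SE, adjusted p = 0.0750 by limma). *Rsph9* was at 9.98, 8.37, 11.2 and 11.98 FPKM in KO and at 6.38, 7.61 and 8.36 in WT, and *Meig1* at 1.59, 1.25, 1.55 and 1.36 against 0.849, 1.03 and 0.519. *Drc1*, a subunit of the dynein regulatory complex, fell by 0.40 on the log2 scale (SE 0.11, adjusted p = 0.0797 by limma), from 5.83, 6.20 and 5.29 FPKM in WT to 5.07, 3.72, 4.22 and 4.52 in KO. The most abundant genes, *Dnal1* and *Tppp3*, had log2 differences of -0.05 ± 0.05 and 0.16 ± 0.10 (SE) and were not called. Both are also expressed by cells without motile cilia. The count of axoneme genes called was 0 without KO replicate 1, 2 or 3 or WT replicate 1, was 1 without KO replicate 0, and was 9 without WT replicate 3. Without WT replicate 2 it was 2, *Meig1* and *Cfap126*, both higher in KO.

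Of the 93 axoneme genes, 37 had their highest value in KO replicate 3, 39.8%, against 11.6% of all genes above 0, and 21 had it in WT replicate 2. Most of the 37 were low genes: of the 64 with a mean under 1 FPKM, 31 were highest in KO replicate 3, against 15.9% of all genes at that level. Of the 29 others, 6 were highest in KO replicate 3 and 7 in WT replicate 1. The 11.6% covers genes of all levels and is not matched to these 29, so no contrast with the low genes is read from it. These 29 reach a mean of 30.6 FPKM (*Dnal1*), above the level of the cilia members. Meningeal fibroblast genes also ran high in this animal, with 9 of 16 at their highest there. The part of tissue content in these levels was not tested.

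Of 21 regulators of multiciliated cells, 10 were tested, among them *Rfx1*, *Rfx3* and *Rfx4*. The geminin-family genes *Mcidas* and *Gmnc*, at means of 0.127 and 0.208 FPKM, were too low to be tested. So were *Myb*, *Trp73* and *Rfx2*, and the fit says nothing about these 5 genes. Of the 10 tested, by limma 0 were called in either direction, 0 had an unadjusted p under 0.05, and the median log2 difference was -0.03. Their most abundant genes were *Tfdp1* (-0.05 ± 0.06, SE), *Jazf1* (-0.03 ± 0.06) and *E2f4* (-0.02 ± 0.07), all with differences below their errors and with signs that turned under some of the other scalings. *Foxn4* was at 0 in every animal.

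The genes of intraflagellar transport and the BBSome, which serve primary cilia of neurons and glia as well as motile cilia, were expressed more widely. Of 44 genes 43 were tested, and 1 was higher and 5 lower in KO, beside 2.9% of all genes higher and 7.25% lower. The median log2 difference was -0.06, beside -0.03 over all genes. *Dync2li1*, a light intermediate chain of the dynein-2 motor, rose (0.32 ± 0.07, SE, adjusted p = 0.0537 by limma), from 8.86, 9.30 and 8.88 FPKM in WT to 11.6, 11.8, 10.02 and 11.8 in KO. *Ift57* fell by 0.43 (SE 0.13), *Wdr60* by 0.39 (SE 0.12), *Ift80* by 0.33 (SE 0.08), *Ift74* by 0.33 (SE 0.09) and *Bbs9* by 0.25 (SE 0.07) on the log2 scale. Their adjusted p-values by limma ran from 0.0583 for *Ift80* to 0.0975 for *Wdr60*. *Ift80* was at 8.04, 6.88, 6.60 and 7.26 FPKM in KO and at 9.16, 9.28 and 8.70 in WT. *Ift57* was at 26.3, 22.4 and 16.7 in WT and at 15.0 to 16.6 in KO, so WT replicate 3 was next to the KO animals. The most abundant genes of the list, *Dynlrb1* (0.03 ± 0.07, SE), *Kifap3* (-0.07 ± 0.05) and *Kif3a* (-0.18 ± 0.08), were not called. With each library centred on its median, 3 genes of the list were called. The count was 0 without KO replicate 1, KO replicate 3 or WT replicate 1, was 1 without KO replicate 0, KO replicate 2 or WT replicate 2, and was 11 without WT replicate 3.

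**Figure D4:**
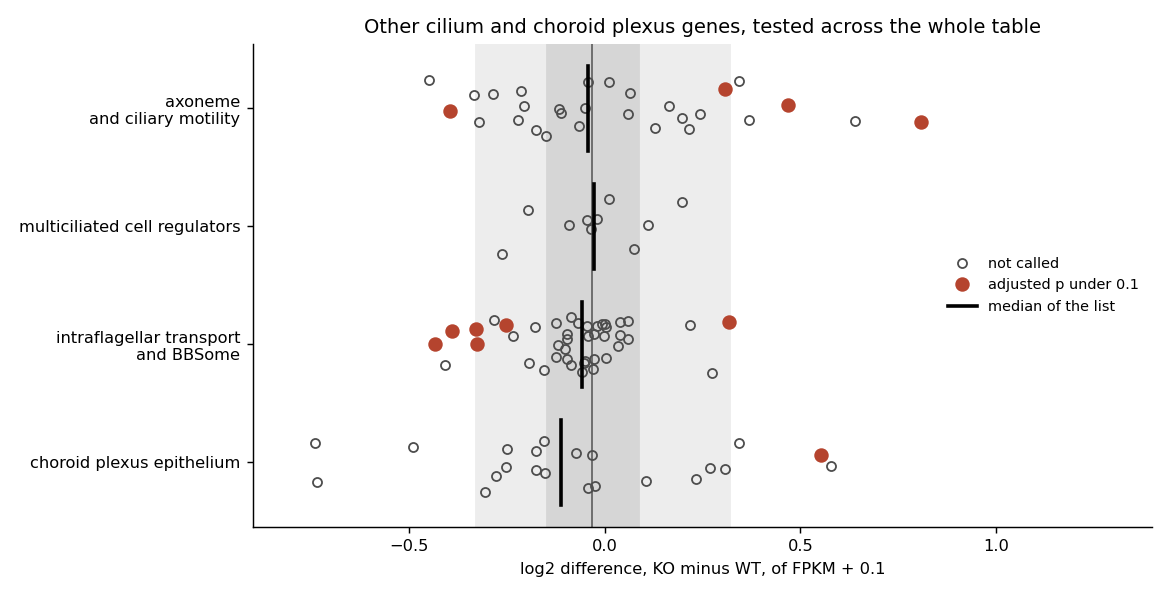
Log2 difference between KO and WT of each tested gene in 4 lists of genes that are not members (filled, adjusted p under 0.1), with list medians as black bars. Grey bands cover the middle of all 12988 tested genes (25th to 75th and 5th to 95th percentiles, -0.15 to 0.09 and -0.33 to 0.32), and the list medians lie within the darker band.

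Markers of other tissue that a cortical dissection can hold also differed between libraries. The summed level of 14 striatal projection neuron genes was 502, 588, 335 and 254 FPKM in KO and 139, 541 and 246 in WT. WT replicate 2 was among the high animals for striatal genes as for choroid plexus genes. KO replicates 0 and 1, the other animals with high striatal sums, were the next highest for *Ttr*, at 47.9 and 23.5 FPKM. They were also next highest in the median deviation of the choroid plexus list, at -0.01 and 0.07 on the log2 scale. WT replicate 2 was at 0.88, and the remaining animals were between -0.49 and -0.13. Of the 13 striatal genes tested 0 were called, 1 had an unadjusted p under 0.05 (limma), and the median log2 difference was 0.77. Meningeal genes summed to between 1012 and 1225 FPKM in KO and between 665 and 965 in WT, but *Ptgds*, a prostaglandin synthase gene, made up 90.7% of this sum. Without *Ptgds*, left out after its values were seen, the sums overlapped, at 89.3 to 109 in KO and 84.0 to 92.2 in WT. The median log2 difference of the tested meningeal genes, *Ptgds* included, was 0.32, with 13 of 15 higher in KO. Over all genes the median was -0.03. Of 15 meningeal genes tested, 2 were called higher and 0 lower in KO, beside 10.1% of all genes called in either direction, 2.9% higher and 7.25% lower, the shares against which the counts of the other lists here are to be read. Ependymal surface and secreted genes, such as *Cd24a* and *Vim*, overlapped, at 198 to 234 FPKM in KO and 200 to 220 in WT, with 2 of 12 called higher and 1 lower. Subventricular genes summed to 44.4 to 51.0 in KO and 35.2 to 49.2 in WT (1 of 10 called, higher), and olfactory bulb genes to 15.0 to 30.4 and 13.9 to 18.6 (1 of 5 called, higher). *Slc17a6*, the most abundant gene of the olfactory bulb list, made up 45.1% of its sum. Without it the groups did not overlap, at 8.53 to 22.3 in KO and 5.35 to 8.13 in WT. Hippocampal genes summed to 76.3 to 90.4 and 66.6 to 77.3 (1 of 8 called, higher). Cortical excitatory neuron genes, which define the labelled tissue, were high in all 7 libraries, at 810 to 890 in KO and 811 to 963 in WT (2 of 10 called, lower). *Slc17a7*, the most abundant of them, made up 70.25% of this sum. Without it the groups did not overlap, at 238 to 243 in KO and 260 to 293 in WT. The striatal, ependymal, subventricular and hippocampal sums still overlapped between genotypes without the most abundant gene of each list. The part of tissue content in the values of the members was not tested.

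**Figure D5:**
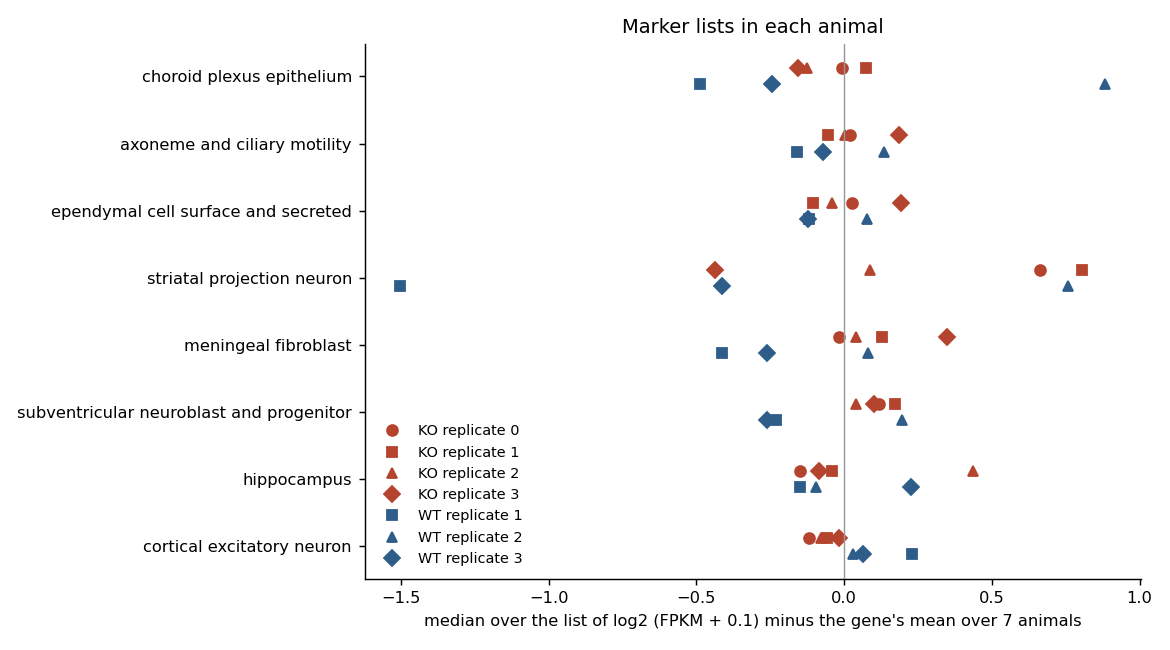
Median over each marker list of log2 (FPKM + 0.1) minus the gene's mean over 7 animals, by animal (WT blue, KO red, below and above each row's line). The choroid plexus list is 0.88 in WT replicate 2 and between -0.49 and 0.07 in the other animals, and the axoneme list is highest in KO replicate 3, at 0.19.

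The genes most like each set were found with genotype means removed, by Pearson r over the 7 animals with the mean standardised profile of the members. For the ependymal cilia genes these were *Pros1* (r = 0.99), *Dact1* (0.99), *Ahcyl2* (0.98), *Pcnx* (0.97) and *Ttyh3* (0.96). Of the 50 most alike, 0 were axoneme genes, a list that holds 0.22% of the genes compared, so nothing is read from this count. A regulator of multiciliated cells, *Rfx3*, was at position 48. The median r was 0.31 over the 29 axoneme genes, 0.43 over the 22 choroid plexus genes and 0.43 over the 12 ependymal surface genes tested, beside -0.04 over all genes. Without WT replicate 2 these medians were 0.18, 0.04 and 0.50. Other lists were lower: the median r was -0.24 for the regulators of multiciliated cells, 0.0006 for intraflagellar transport and 0.003 for striatal genes. Without WT replicate 2 those were -0.37, 0.003 and -0.69. For the choroid plexus genes the most alike were *Hacl1* (r = 0.996), *Pik3c2b* (0.995), *Cdc7* (0.99), *Klhl13* (0.99) and *Alox5ap* (0.98). Of the 50 most alike, 6 were choroid plexus and 3 striatal genes, lists that hold 0.17% and 0.10% of the genes compared. The median r was 0.84 over the 22 choroid plexus genes and 0.91 over the 13 striatal genes. For the axoneme, regulator, intraflagellar transport and ependymal surface lists it was 0.05, 0.11, -0.07 and 0.01. Without WT replicate 2 it was -0.08 for choroid plexus genes and 0.76 for striatal genes. Among *Ttr*, *Kl* and *Folr1* themselves the median r was 0.71 and dropped to 0.13 without that animal. Over 7 libraries many genes reach a high r, and these values describe the libraries only.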

How the data were processed

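RNA of whole cerebral cortex from 4 CrT-/y and 3 CrT+/y males was extracted with a column kit, made into libraries with the Universal Plus mRNA-Seq kit and sequenced in paired-end mode on an Illumina NovaSeq instrument. Per the study's methods and the submitters' processing notes, the authors aligned reads to mm10 with up to 2 mismatches, kept unique alignments to exons and splice junctions, and deposited FPKM values made with Bowtie and Cuffnorm, whose versions are not given in the sources used here. FPKM are scaled by length and library, so the counts behind them cannot be read off, and the read numbers per library that the study gives were not used here. The number of fragments behind a value was estimated from the smallest steps between FPKM values of genes with 1 transcript in GENCODE, which is approximate.

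Values were tested as log2(FPKM + 0.1), for genes averaging 1 FPKM or more, with limma 3.58.1 in R 4.3.3 (empirical Bayes with a trend, all 7 animals, genotype as the only term), with Benjamini-Hochberg adjustment over all 12988 genes and a threshold of 0.1. Fold changes of low genes are understated by the pseudocount of 0.1. The labels call the animals biological replicates. The fit was tested on simulated data with known changes.

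The members and the gene lists were chosen with earlier results of these data known. From each of the 4 pathway lists, all called genes (at most 8) and the 3 genes of highest mean FPKM are named, together with the 5 genes most like each set of members. List symbols were matched by name or older synonym; *Dnah3*, *Dnah7c*, *Dnah12*, *Dnai1*, *Dnai2*, *Rsph10b*, *Cfap54*, *Cdhr4* and *Mfrp* were not matched. Gene positions are those of GENCODE M21 (mm10), where no member shares exon bases with another gene. The alternatives tried were other pseudocounts, filters, scalings and variance settings, a replicate block and leaving out each animal.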

Additional observations from a re-analysis of the deposited data

Results flagged for a closer look

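The *Dync2li1* level in KO replicate 2 was 10.02 FPKM, whereas the other 3 KO animals lay between 11.6 and 11.8 FPKM. The gap to the nearest animal was 0.874 of the range of the group, above the 95% critical value of Dixon's test for 4 samples. Chance gives such a gap in about 1 in 20 groups, and 32 groups were examined. The value remained above the WT animals.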

How the results depend on the processing

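The number of genes called between genotypes, 1318, was 730 with no filter on low values and ran from 64 to 3736 when 1 animal was left out (64 without KO replicate 1, 3736 without WT replicate 3). Calls on the axoneme list, 4, were 0 with no filter and 1 at a mean of at least 5 FPKM, and 0 to 9 when 1 animal was left out. Calls on the intraflagellar transport list, 6, were 2 with no filter, 3 at a mean of at least 0.1 FPKM, 3 with quantile normalisation, 2 with upper quartile scaling, 3 with median centring and 10 with array weights, and 0 to 11 when 1 animal was left out. Calls on the choroid plexus list, 1, were 0 with no filter and 2 with array weights, and 0 to 6 when 1 animal was left out. The list of regulators had 0 calls in all 18 alternatives. The cause was not tested. The replicate numbers 1 to 3 are shared by the genotypes, but same-numbered animals did not deviate together (r of -0.08, 0.05 and -0.05). With the number as a replicate block, without KO replicate 0, which has no partner, 583 genes were called, against 614 for the same 6 animals unblocked, with 2 calls on the axoneme, 1 on the intraflagellar transport and 2 on the choroid plexus list.

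Values near 0 changed sign. With quantile normalisation the log2 differences were 0.0164 for *Dnal1*, 0.0102 for *Tfdp1*, 0.0048 for *Jazf1*, 0.0118 for *E2f4* and 0.0078 for *Kifap3*. With upper quartile scaling they were 0.0041 for *Tfdp1*, 0.0146 for *Jazf1* and 0.0304 for *E2f4*, and with median centring 0.0021 for *Jazf1* and 0.018 for *E2f4*. When 1 animal was left out they ran from -0.0937 to 0.0083 for *Tfdp1*, from -0.0736 to 0.0193 for *Jazf1*, from -0.0614 to 0.0292 for *E2f4* and from -0.0014 to 0.0686 for *Dynlrb1*. At a mean of at least 5 FPKM only *Ttr* among the members was tested. The number of animals, 4 and 3, limits the precision of all values.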
